A study of Mus musculus with 8 samples.

Results

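The 10 genes described here take up, move, store and release iron or break down heme: Tfrc, Steap3, Slc11a2, Slc25a37, Glrx5, Fth1, Ftl1, Slc40a1, Hmox1 and Blvrb. They were chosen by symbol for their role, with earlier results of these data known. All 10 were found among the 54749 genes of the count tables and kept by the filter on low counts. RNA was sequenced from cells sorted as LT-HSCs of 6-month-old mice, with 1 library for each mouse. There were 4 homozygous asrij floxed mice (replicates 1, 3, 4 and 5), the controls, and 4 asrij KO mice (replicates 2, 3, 4 and 5). LT-HSCs are the stem cells that can rebuild blood over the long term. For these libraries the methods give them as Lin- c-Kit+ Sca1+ bone marrow cells positive for CD150 and CD48. For RT-qPCR, the same methods give LT-HSCs as negative for CD48. The KO is a deletion in the whole body, so cells of other types in the marrow of these mice also lacked asrij, whose mouse gene symbol is Ociad1. Mice of both sexes were used in the study, and the sex of each library's mouse is not given in the sources used here.

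Cells take up iron bound to transferrin through the transferrin receptor, reduce it in the endosome and pass it to the cytosol, from where the mitochondrion draws it for heme and iron-sulfur clusters. Iron in excess is kept in the ferritin shell or leaves the cell through ferroportin, and heme that is broken down gives its iron back to the same pool. Developing red cells have the largest need for iron in the marrow, and macrophages recover it from old red cells. When iron is scarce, iron regulatory proteins bind short RNA hairpins, the iron-responsive elements, which hold back the translation of mRNAs that carry them near the start and protect the mRNA of the transferrin receptor, which carries several of them behind the coding region.

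A search of GENCODE M21 (GRCm38) found such hairpins in 4 of the 10 genes. It covered the spliced form of the transcript with the highest total count of each gene and no other transcript. The hairpins are shown because iron regulatory proteins bind such elements, and other members may carry some that the search did not cover. The search asked for a C, 5 paired bases and the loop C-A-G-T-G-N, followed by the 5 pairing bases, with at least 3 of the 5 bases on the outer side of the C paired as well. Loop bases are in capitals, each sequence reads 5′ to 3′ on the strand of its gene, and all are of GRCm38.
Tfrc 3′ UTR, chr16:32631220-32631246, plus strand: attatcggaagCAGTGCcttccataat
Tfrc 3′ UTR, chr16:32631599-32631625, plus strand: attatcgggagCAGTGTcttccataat
Tfrc 3′ UTR, chr16:32631664-32631690, plus strand: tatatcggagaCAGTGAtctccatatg
Tfrc 3′ UTR, chr16:32631711-32631737, plus strand: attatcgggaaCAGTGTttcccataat
Fth1 5′ UTR, chr19:9982733-9982759, plus strand: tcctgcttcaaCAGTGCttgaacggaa
Ftl1 5′ UTR, chr7:45459780-45459806, minus strand: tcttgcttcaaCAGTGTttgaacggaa
Slc40a1 5′ UTR, chr1:45925466-45925492, minus strand: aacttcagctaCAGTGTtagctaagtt
The 4 hairpins of Tfrc had all 5 outer bases paired, as had that of Slc40a1, and those of Fth1 and Ftl1 had 4. Over all coding genes with a UTR, 7 of 19932 5′ UTRs (0.0351%) and 33 of 21222 3′ UTRs (0.155%) held such a hairpin. No match was found in the UTRs of the other 6 members, which says only that these letters are not in the transcripts searched. The transcript searched for Steap3 has 0 bases of 3′ UTR.

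Libraries held 23412829 to 44874882 gene counts, and values below are CPM, the counts scaled to one common library size with TMM normalization. Genes were compared between KO and floxed libraries with edgeR's quasi-likelihood test over 21902 genes, and "passed the test" means an adjusted p-value (Benjamini-Hochberg) under 0.05. The targeted gene Ociad1 lay between 31.4 and 66.9 CPM in floxed and between 11.7 and 19.7 CPM in KO libraries (log2 fold change -1.58, edgeR adjusted p = 0.0249). Floxed replicate 3 stood apart from the other 3 floxed libraries, with 7754 CPM summed over 15 erythroid markers against 2403 to 2656 CPM, and 16230 CPM over 10 neutrophil markers against 44490 to 50490 CPM. Results for the members are therefore also given without this library where it changes them. It was singled out by values of these same data, so p-values of fits without it are descriptive and give no independent support.

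Of the 10 members, 3 were higher in KO libraries and passed the test: Glrx5 of iron-sulfur cluster assembly, and Hmox1 and Blvrb of heme breakdown. Of all genes tested, 1.22% were higher and passed and 1.75% were lower and passed. None of the 10 members was lower and passed, and the median log2 fold change was 0.75 over the members against -0.01 over all genes tested. Glrx5 and Hmox1 also exceeded a log2 fold change of 1.5, as 0.452% of all genes did upwards with the test passed. In bulk RNA, fewer cells of a type and less RNA per cell cannot be told apart.

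**Figure D1:**
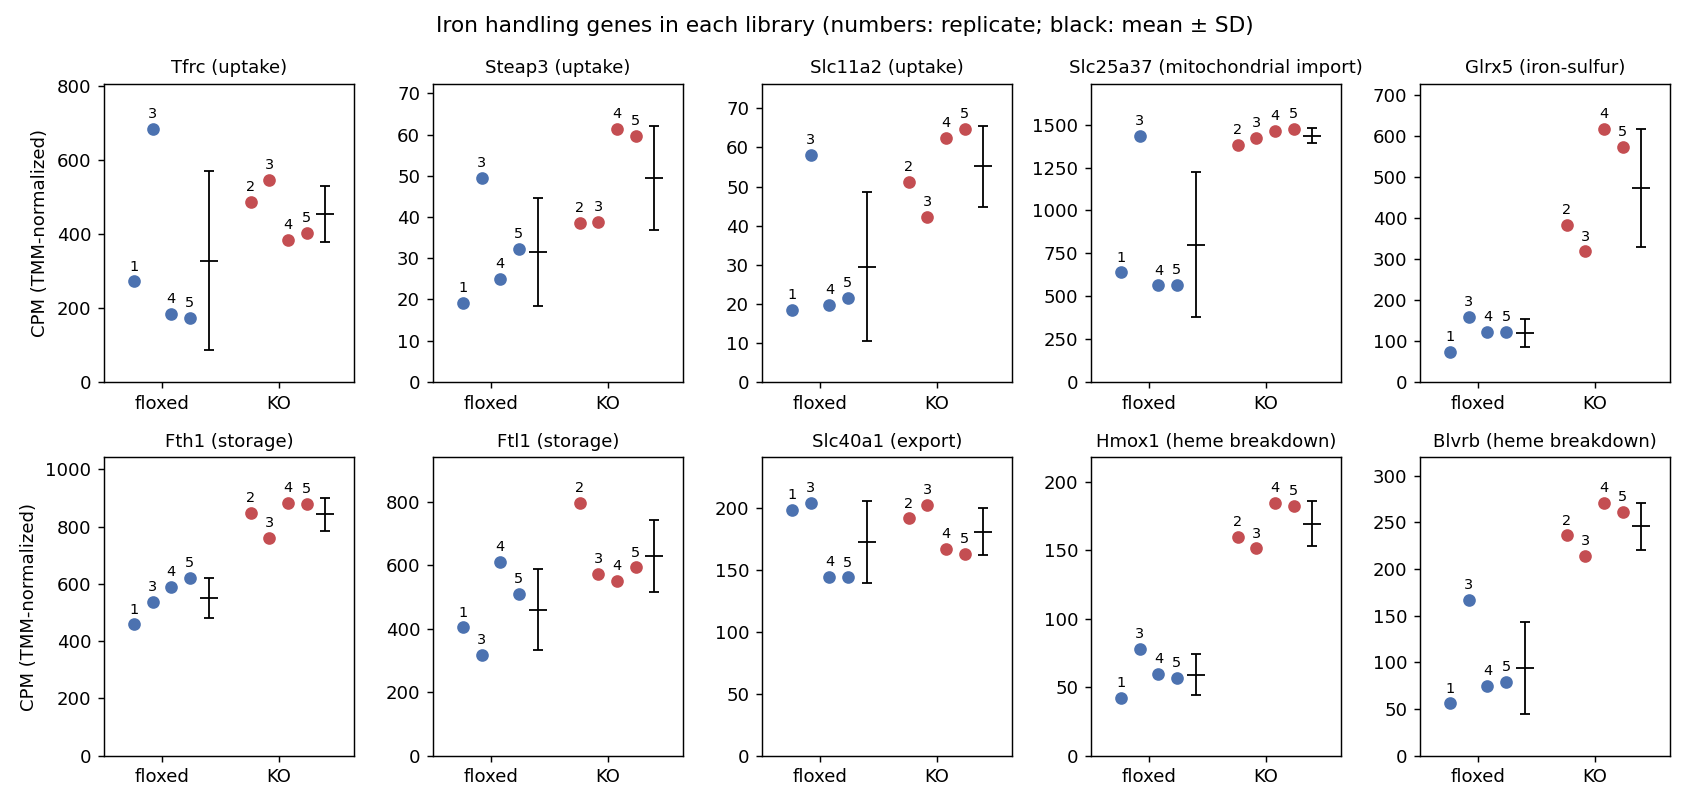
TMM-normalized CPM (vertical axes, starting at 0) of the 10 members in the 4 floxed (blue) and 4 KO (red) libraries, with the replicate number above each point and the mean ± SD in black. Every KO library lies above every floxed library for Glrx5, Fth1, Hmox1 and Blvrb, and floxed replicate 3 lies at or near the KO level for Tfrc, Steap3, Slc11a2 and Slc25a37.

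Hmox1 encodes the inducible heme oxygenase, which opens the heme ring and sets free iron, carbon monoxide and biliverdin, and it lies at chr8:75093621-75100589 on the plus strand. It had 42.2, 78.2, 59.9 and 56.5 CPM in floxed replicates 1, 3, 4 and 5, against 159.5, 151, 185 and 183 CPM in KO replicates 2, 3, 4 and 5. All KO libraries were above all floxed libraries, of which replicate 3 was the highest. Floxed libraries averaged 59.2 ± 14.8 CPM (SD, n = 4) against 169.5 ± 16.6 CPM (SD, n = 4) for KO libraries, a log2 fold change of 1.52 (standard error 0.20, edgeR adjusted p = 0.00935). Leaving out any 1 of the 8 libraries kept the log2 fold change between 1.41 and 1.69 and the adjusted p-value between 0.00052 and 0.0420 in edgeR. With the replicate number as a block, which keeps numbers 3, 4 and 5, the log2 fold change was 1.44 and the test was not passed (edgeR adjusted p = 0.0805).

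Blvrb encodes biliverdin reductase B, an NADPH-dependent flavin reductase abundant in red cells that reduces the beta form of biliverdin, at chr7:27447978-27466144 on the plus strand. Its level was 55.9, 167, 74.6 and 79.1 CPM in floxed replicates 1, 3, 4 and 5, against 236, 214, 271 and 261 CPM in KO replicates 2, 3, 4 and 5. The groups did not overlap, although floxed replicate 3 was 2.39 times the mean of the other floxed libraries. KO libraries had a log2 fold change of 1.38 (standard error 0.32, edgeR adjusted p = 0.0495). The adjusted p-value was 0.000415 without floxed replicate 3, and between 0.0885 and 0.127 in the 7 fits that left out another library, so that the call held in 1 of 8. With the replicate block it was 0.150.

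The constitutive partners of both enzymes had small differences that did not pass the test. Hmox2, the heme oxygenase that is made without induction, lay between 26.3 and 41.4 CPM in floxed and between 35.7 and 39.0 CPM in KO libraries (log2 fold change 0.09, standard error 0.16, edgeR adjusted p = 0.803). Blvra, which reduces the alpha form of biliverdin made from heme, lay between 9.16 and 13.7 CPM in floxed and between 10.7 and 15.8 CPM in KO libraries (log2 fold change 0.22, standard error 0.20, edgeR adjusted p = 0.567). Both pairs of groups overlapped.

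Glrx5, at chr12:105032688-105042906 on the plus strand, encodes the mitochondrial glutaredoxin that hands newly built iron-sulfur clusters on to other proteins. It had 73.0, 159, 122.6 and 122.5 CPM in floxed replicates 1, 3, 4 and 5, against 384, 318, 617 and 573 CPM in KO replicates 2, 3, 4 and 5. The groups did not overlap, and KO replicates 4 and 5 were higher than KO replicates 2 and 3. The mean rose from 119 ± 35.1 CPM (SD, n = 4) to 473 ± 144 CPM (SD, n = 4), a log2 fold change of 1.99 (standard error 0.30, edgeR adjusted p = 0.0176) and the largest of the 10 members. With 1 library left out, the log2 fold change stayed between 1.84 and 2.17, and the adjusted p-value lay between 0.0513 and 0.0625 without floxed replicate 1, floxed replicate 5, KO replicate 4 or KO replicate 5 and under 0.05 in the other 4 fits. With the replicate block the adjusted p-value was 0.1001.

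Slc25a37, also called mitoferrin 1, carries iron across the inner mitochondrial membrane of erythroid cells and lies at chr14:69241848-69285112 on the minus strand. Its level was 638, 1435, 563 and 567 CPM in floxed replicates 1, 3, 4 and 5, against 1380, 1424, 1463 and 1474 CPM in KO replicates 2, 3, 4 and 5. KO libraries lay within a narrow range, and of the floxed libraries replicate 3 lay inside this range while the other 3 lay far below it. With all libraries, the log2 fold change was 0.84 (standard error 0.32) and did not pass the test (edgeR adjusted p = 0.166). Without floxed replicate 3 it was 1.30 (standard error 0.12, edgeR adjusted p = 0.000452). Of its 50-base stretches, 8.07% also occur in the model Gm16867, and 2 overlapping genes on the other strand had counts of 1.19% and 1.23% of its own, so a small part of its count may belong to these.

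Mitoferrin 2, encoded by Slc25a28 and used by most other cells, lay between 32.6 and 55.2 CPM in floxed and between 36.8 and 51.6 CPM in KO libraries (log2 fold change -0.01, standard error 0.20, edgeR adjusted p = 0.984). The log2 ratio of Slc25a37 to Slc25a28, each as CPM + 1, was 3.85, 5.42, 3.44 and 3.34 in floxed replicates 1, 3, 4 and 5 and between 4.81 and 5.24 in KO libraries. The groups overlapped through floxed replicate 3, and the difference of 0.96 was not significant (exact two-sided permutation test over 70 labelings, p = 0.143, 0.429 after adjustment over 3 ratios). The difference without floxed replicate 3 was 1.43, with no test. The smallest p-value this test can give is 0.0286.

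Tfrc encodes the transferrin receptor, which carries transferrin-bound iron into the cell, at chr16:32608920-32632794 on the plus strand. It had 272, 685, 184 and 173 CPM in floxed replicates 1, 3, 4 and 5, against 486, 547, 383 and 403 CPM in KO replicates 2, 3, 4 and 5. Floxed replicate 3 was the highest of all 8 libraries and 3.26 times the mean of the other floxed libraries, which were all below the KO libraries. With all libraries, the log2 fold change was 0.47 (standard error 0.42, edgeR adjusted p = 0.561), and 1.13 (standard error 0.20, edgeR adjusted p = 0.00772) without floxed replicate 3.

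The other two members of the uptake route were also high in floxed replicate 3. Steap3, the ferrireductase that reduces iron in the endosome of erythroid cells (chr1:120190757-120272705, minus strand), had 19.2, 49.4, 25.0 and 32.2 CPM in floxed replicates 1, 3, 4 and 5, against 38.5, 38.8, 61.3 and 59.6 CPM in KO replicates 2, 3, 4 and 5. Slc11a2, the divalent metal transporter DMT1 that moves the reduced iron into the cytosol (chr15:100387898-100425072, minus strand), had 18.5, 58.0, 19.7 and 21.6 CPM in the same floxed and 51.1, 42.3, 62.5 and 64.7 CPM in the same KO libraries. For both genes the groups overlapped through floxed replicate 3 alone. The log2 fold change was 0.65 (standard error 0.30, edgeR adjusted p = 0.239) for Steap3 and 0.90 (standard error 0.37, edgeR adjusted p = 0.190) for Slc11a2. Without floxed replicate 3 it was 0.97 (edgeR adjusted p = 0.0305) and 1.48 (edgeR adjusted p = 0.00126).

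Ferritin, the store of cellular iron, is built from heavy chains with ferroxidase activity and light chains that help the iron core to form. Fth1, the heavy chain (chr19:9980598-9985098, plus strand), had 458, 536, 589 and 620 CPM in floxed replicates 1, 3, 4 and 5, against 849, 760, 883 and 878 CPM in KO replicates 2, 3, 4 and 5. Every KO library was above every floxed library, and floxed replicate 3 was in the middle of its group. Its log2 fold change of 0.61 (standard error 0.18) missed the threshold (edgeR adjusted p = 0.0852). It was 0.61 without floxed replicate 3 as well, with an edgeR adjusted p-value of 0.0262.

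Ftl1, the light chain (chr7:45457944-45459884, minus strand), had 405, 317, 612 and 510 CPM in floxed replicates 1, 3, 4 and 5, against 797, 574, 550 and 594 CPM in KO replicates 2, 3, 4 and 5. Groups overlapped through floxed replicate 4, and floxed replicate 3 was the lowest library. The log2 fold change was 0.45 (standard error 0.24, edgeR adjusted p = 0.318), and 0.31 (edgeR adjusted p = 0.328) without floxed replicate 3. The level of Ftl1 is uncertain, since 78.9% of its 50-base stretches occur in 15 other genes, mostly copies such as Ftl1-ps1, and since 2 models that overlap it, Gm22133 and Gm10252, had counts of 44.3% and 48.2% of its own.

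The balance of the chains did not differ beyond the spread of the libraries. The log2 ratio of Fth1 to Ftl1 was 0.29 ± 0.34 (SD, n = 4) in floxed libraries against 0.43 ± 0.26 (SD, n = 4) in KO libraries, with a difference of 0.14 (exact two-sided permutation test, p = 0.514, 0.771 adjusted over 3 ratios). The log2 ratio of Tfrc to Fth1, of uptake to storage, was -0.75, 0.35, -1.67 and -1.83 in floxed replicates 1, 3, 4 and 5 and between -1.20 and -0.48 in KO libraries. Floxed libraries were on both sides of the KO libraries, and the difference was 0.08 (exact two-sided permutation test, p = 0.914, 0.914 adjusted over 3 ratios). The differences without floxed replicate 3 were 0.52 for Tfrc to Fth1 and 0.30 for Fth1 to Ftl1, with no test.

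Slc40a1 encodes ferroportin, the exporter of iron, at chr1:45908068-45926523 on the minus strand. It had 198, 204, 144 and 144 CPM in floxed replicates 1, 3, 4 and 5, against 191, 202, 167 and 163 CPM in KO replicates 2, 3, 4 and 5. Libraries numbered 1 to 3 were higher than those numbered 4 and 5 in both genotypes. The log2 fold change was 0.07 (standard error 0.18, edgeR adjusted p = 0.862), and its sign was not kept, with -0.15 for counts summed over transcripts. None of the 4 members in which the search found an iron-responsive element, Tfrc, Fth1, Ftl1 and Slc40a1, passed edgeR's test with all libraries and no block. Of these, Fth1 alone had an unadjusted p-value under 0.05 in that fit, as had 21.8% of all genes. None passed in limma-voom either, while Fth1 passed in DESeq2, as did 11.2% of all genes in either direction, and in an edgeR fit with a block for replicate numbers that is described further on.

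Groups that did not overlap were found for 4 of 10 members, Glrx5, Fth1, Hmox1 and Blvrb, all with the KO libraries above, against 7.1% of all genes tested. The opposite order, found in 7.66% of all genes, was found for no member. No member was lower with an unadjusted p-value under 0.05 in edgeR, limma-voom or DESeq2.

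The number of members that passed depended on floxed replicate 3. Without it, 8 of 10 members were higher and passed the test, all but Ftl1 and Slc40a1, while the share of all 22094 genes that were higher and passed grew to 8.9%. The median log2 fold change was then 1.21 over the members and 0.04 over all genes. Calls without floxed replicate 3 are not independent of its choice, since it was singled out by its values in these data. This library was higher than the other 3 floxed libraries for 8 members, all but Fth1 and Ftl1, and by the most for Tfrc and Slc11a2, at 3.26 and 2.91 times their mean.

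Libraries also differed by replicate number, with numbers 4 and 5 apart from numbers 1 to 3 in both genotypes. What the numbers stand for is not given in the sources used here. With the number as a block, no member passed the test, against 0.13% of 21600 genes that were higher and passed, and 5 members were higher with an unadjusted p-value under 0.05 in edgeR, against 10.2% of all genes. All 10 log2 fold changes were positive in that fit. When libraries 4 and 5 of both genotypes formed one block and the rest another, which keeps all 8, Hmox1, Glrx5, Blvrb and Fth1 were higher and passed, against 8.88% of all genes.

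Within each set of numbers, KO minus floxed differences of the mean log2(CPM + 1) could be compared without a test. They were 1.42 within numbers 1 to 3 and 1.64 within numbers 4 and 5 for Hmox1, 1.69 and 2.27 for Glrx5, and 1.21 and 1.78 for Blvrb. The differences within numbers 1 to 3, which include floxed replicate 3, were smaller than those within numbers 4 and 5 for Tfrc, at 0.26 against 1.13, and for Slc11a2, at 0.49 against 1.58. Slc25a37, with 0.55 against 1.38, and Steap3, with 0.31 against 1.07, had the same order. For Ftl1 the order was the opposite, at 0.92 against 0.03, and for Fth1 the values were 0.70 and 0.54. The sign of Slc40a1 was not the same in both, at -0.03 and 0.20.

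The deposited counts were taken to cover the whole genomic span of a transcript, introns included. On this reading, the place of the reads within the span could be compared between libraries for 7 members. These have a second transcript lacking at least 1000 bases at the 3′ end. Over 7806 genes, the median share of the count that fell on such a shorter transcript was 40.3%, 44.9%, 32.0% and 36.7% in floxed replicates 1, 3, 4 and 5 and between 33.1% and 34.0% in KO libraries. Tfrc had the widest relative range of the 7 members, with 21.3%, 27.4%, 6.18% and 10.9% in floxed replicates 1, 3, 4 and 5 against 8.18%, 8.59%, 5.45% and 5.41% in KO replicates 2, 3, 4 and 5. If the counts cover the whole span, reads of floxed replicates 1 and 3 lay more often outside the last 9053 bases of the Tfrc span, where all 4 iron-responsive elements lie.

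Slc25a37, Slc40a1 and Slc11a2 also had their highest shares in floxed replicates 1 and 3, with 43.4% and 51.7% for Slc25a37, 8.17% and 12.2% for Slc40a1 and 61.5% and 73.7% for Slc11a2. KO libraries reached at most 29.8%, 4.97% and 57.7% for these genes. For Hmox1 the shares were 27.1% to 34.1% in floxed and 28.3% to 35.9% in KO libraries, and for Glrx5 56.9% to 66.6% and 53.2% to 67.7%. These ranges overlap, as do those of Blvrb, with 50.7% to 56.4% and 46.0% to 57.9%. The shorter transcripts of Hmox1, Glrx5 and Blvrb also lack bases at the 5′ end. They start at 75096844 against 75093621 for Hmox1, 105035216 against 105032690 for Glrx5 and 27452444 against 27447978 for Blvrb. Those of Tfrc, Slc11a2, Slc25a37 and Slc40a1 lack far fewer bases there, so the shares are not measured alike between these sets. When only the shorter transcript was counted, Hmox1 (log2 fold change 1.74, edgeR adjusted p = 0.0109), Glrx5 (2.07, 0.0109) and Blvrb (1.55, 0.0270) were higher and passed the test, against 1.92% of 9612 genes.

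On the shorter transcripts, the log2 fold change of Tfrc was -0.75 (standard error 0.64, edgeR adjusted p = 0.517) and that of Slc40a1 -0.62 (standard error 0.33, edgeR adjusted p = 0.284), both opposite in sign to those on the full span. Slc11a2 had 0.87 (edgeR adjusted p = 0.178) and Slc25a37 0.57 (edgeR adjusted p = 0.377). If the counts cover the whole span, the direction of Tfrc and Slc40a1 therefore cannot be given from these counts. The shorter transcripts held 5.41% to 27.4% of the Tfrc count and 3.23% to 12.2% of the Slc40a1 count. Neither opposite sign passed the test, and this fit was added after the data had been seen. Fth1, Ftl1 and Steap3 have no such transcript.

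**Figure D2:**
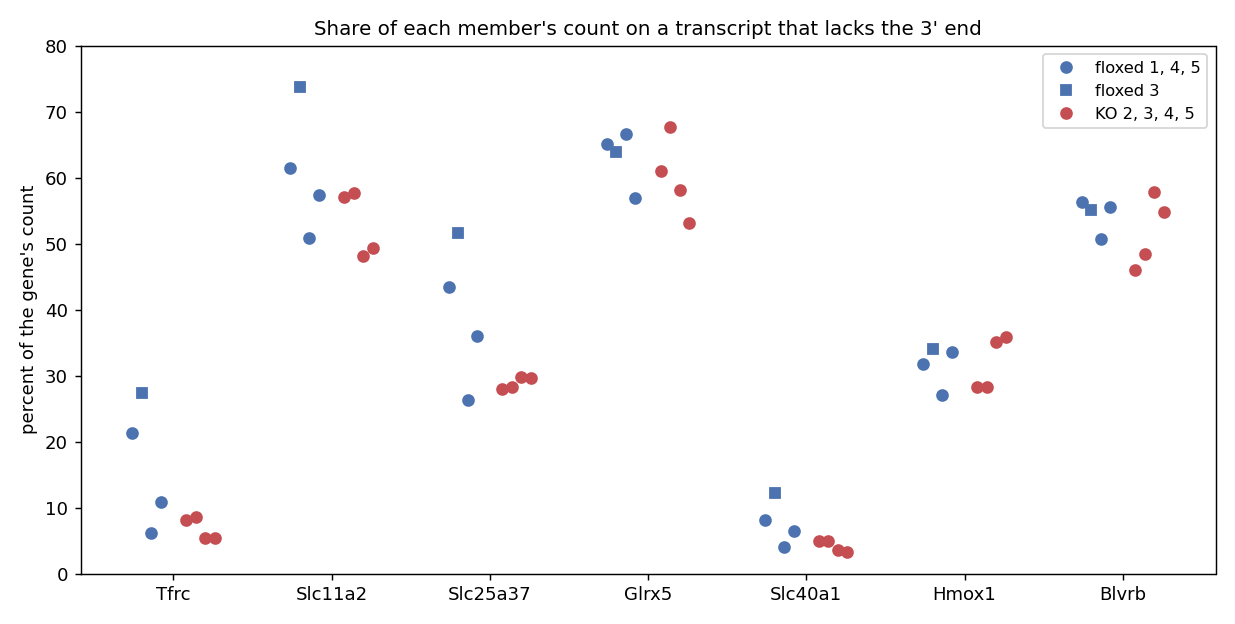
Percent of the count of 7 members (horizontal axis) that fell on a transcript lacking the 3′ end of the counted span, in floxed libraries 1, 4 and 5 (blue circles), floxed library 3 (blue squares) and the 4 KO libraries (red circles). For Tfrc, Slc11a2, Slc25a37 and Slc40a1 the highest shares are those of floxed libraries 1 and 3, while floxed and KO ranges overlap for Glrx5, Hmox1 and Blvrb. The transcripts of Glrx5, Hmox1 and Blvrb also lack more bases at the 5′ end than the others do.

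**Figure D3:**
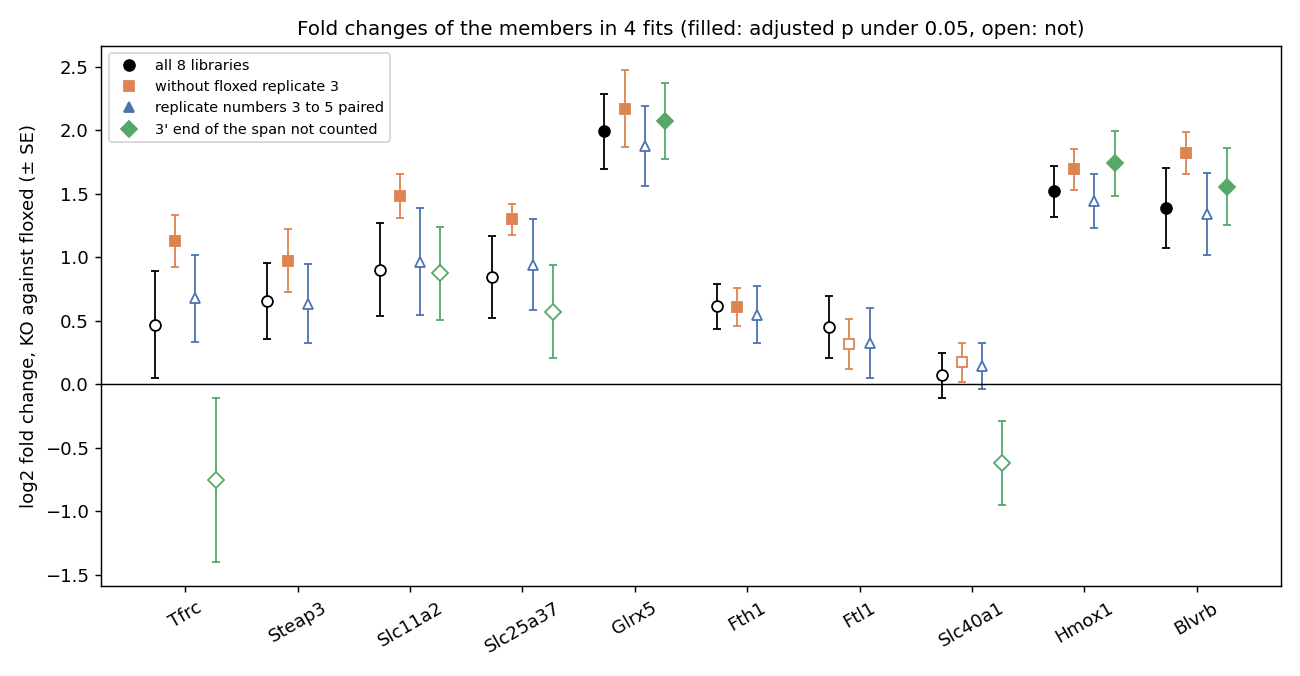
Log2 fold change of KO against floxed libraries (vertical axis, ± standard error) of the 10 members in 4 edgeR fits, filled where the adjusted p-value was under 0.05. With all 8 libraries 3 members are filled, without floxed replicate 3 8 members, with replicate numbers paired none, and with the 3′ end not counted the points of Tfrc and Slc40a1 lie below 0.

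Genes of other cell types moved with the genotype and with floxed replicate 3 as well. Haemoglobin genes took 2.85%, 7.66%, 5.02% and 5.0% of the gene counts in floxed replicates 1, 3, 4 and 5 and 13.96%, 12.2%, 20.7% and 24.3% in KO replicates 2, 3, 4 and 5. All 15 erythroid markers found had a positive log2 fold change, with a median of 1.04. Of them 2, Klf1 and Gata1, rose with the test passed, against 1.22% of all genes. With the replicate block none of the 15 passed (edgeR adjusted p = 0.141 for Klf1 and Gata1), against 0.13% of all genes that were higher and passed. Without floxed replicate 3 all 15 were higher and passed, against 8.9% of all genes. The sum of these same 15 markers had set this library apart, so leaving it out partly fixed this result in advance. Each of the other 7 fits with a library left out passed none, where 0.18% to 0.399% of all genes were higher and passed. Their summed level was 2403 to 7754 CPM in floxed, with the highest value in replicate 3, and 6592 to 8065 CPM in KO libraries, and none of them was under 1 CPM in every library. Erythroid cells use Tfrc, Steap3, Slc11a2, Slc25a37, Glrx5 and Blvrb heavily, and the part of these transcripts in the results was not tested.

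All 11 macrophage markers tested of 12 also had a positive log2 fold change, with a median of 0.98. C1qa, C1qc and Spic rose with the test passed, against 1.22% of all genes. With the replicate block these had edgeR adjusted p-values of 0.0856, 0.0895 and 0.148 and no macrophage marker passed, against 0.13% of all genes that were higher and passed. Without floxed replicate 3, 10 of 11 were higher and passed, against 8.9% of all genes. In the other 7 fits with a library left out 0 or 1 did, against 0.18% to 0.399% of all genes. Their summed level was 211 to 350 CPM in floxed and 454 to 480 CPM in KO libraries, so that the groups did not overlap, and Marco was under 1 CPM in every library. Macrophages that recycle red cells express Hmox1, Blvrb, Slc40a1 and ferritin, and the part of such cells was not tested. The 10 neutrophil markers, of cells that the sort for Lin- c-Kit+ Sca1+ cells should largely remove, summed to 16230 to 50490 CPM in floxed and 24150 to 30650 CPM in KO libraries. With all libraries, none of the 10 passed the test in edgeR, limma-voom or DESeq2. In edgeR, 1 of them had an unadjusted p-value under 0.05, against 21.8% of all genes. When floxed replicate 3 was left out, 4 of the 10 were lower and passed, against 8.64% of all genes. The sum of these same 10 markers had also set this library apart, so that result was partly fixed in advance.

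Of the B cell markers, 1 of 6, Cd79a, was higher and passed (edgeR adjusted p = 0.0408, and 0.150 with the replicate block), against 1.22% of all genes with all libraries. When floxed replicate 3 was left out, 5 of 6 were higher and passed, against 8.9% of all genes, and in the other 7 fits with a library left out none did. The 6 genes gave sums of 282 to 538 CPM in floxed and 478 to 525 CPM in KO libraries. The 12 HSC markers summed to 120 to 179 CPM in floxed and 137 to 157 CPM in KO libraries, with Kit between 46.8 and 60.2 CPM over all 8. Procr and Hoxb5 stayed below 1 CPM in every library, and Fgd5 reached at most 1.09 CPM. Without the haemoglobin genes in the library sizes, Hmox1, Glrx5 and Blvrb still passed the test.

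**Figure D4:**
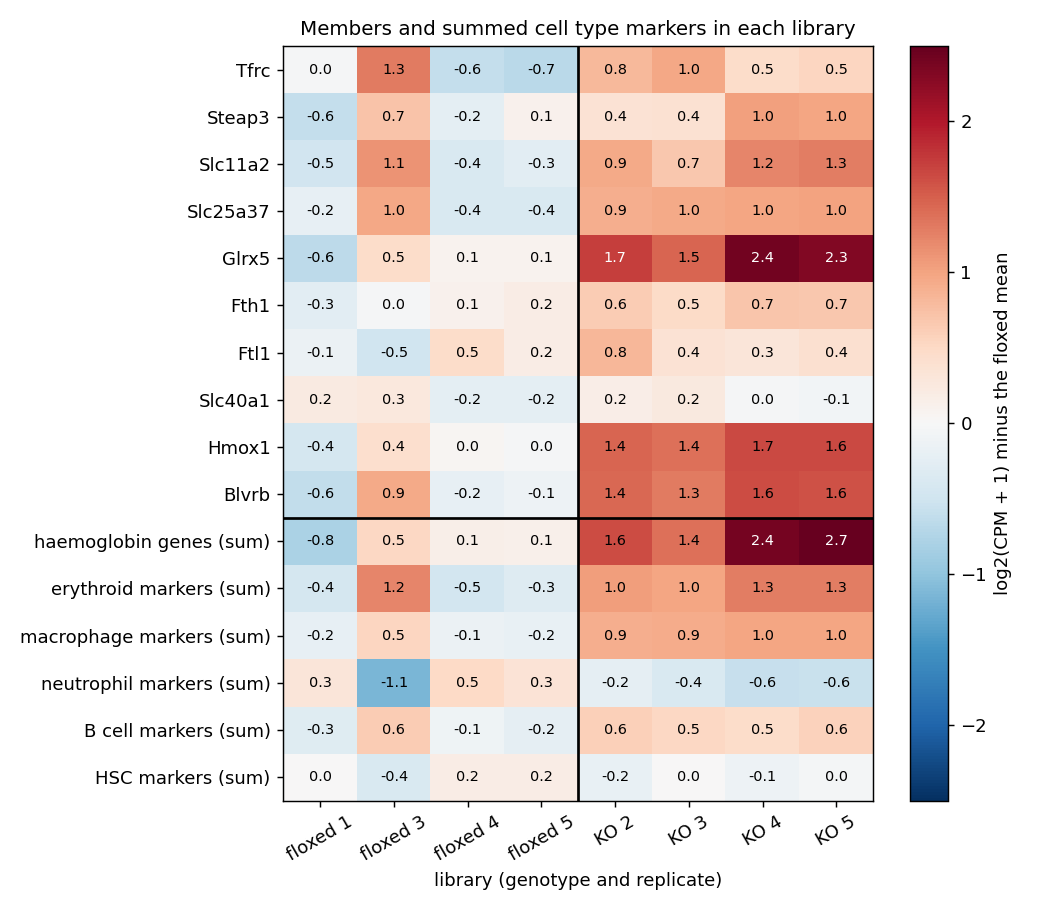
Difference of log2(CPM + 1) from the mean of the 4 floxed libraries, in each of the 8 libraries (columns), for the 10 members (upper rows) and for the summed levels of 6 lists of marker genes (lower rows), red where higher. Hmox1, Glrx5 and Blvrb are higher in all KO libraries, as are haemoglobin genes, while floxed library 3 resembles KO libraries for Tfrc, Slc11a2, Slc25a37 and the erythroid markers.

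Beyond the members, 47 other genes of iron handling were listed by role, and 41 had enough counts to be tested. Of these, 2 were higher and passed, Hscb and Isca1, against 1.22% of all genes, and 2 were lower and passed, Steap4 and Flvcr1, against 1.75%. The median log2 fold change over the 41 was 0.19. Without floxed replicate 3, 13 were higher and 5 lower with the test passed, where 8.9% of all genes were higher and 8.64% lower, and with the replicate block none passed, with 14 of 41 at an unadjusted p-value under 0.05 in edgeR, against 18.2% of all genes. Steap1, Steap2, Cybrd1, Ftmt, Hamp and Hpx had too few counts.

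Both genes that were higher belong to iron-sulfur cluster assembly, a role with a median log2 fold change of 0.59 over 11 genes beside Glrx5. Hscb, the cochaperone that helps a new cluster leave its scaffold, had 6.99, 14.3, 8.67 and 8.39 CPM in floxed replicates 1, 3, 4 and 5, against 24.9, 20.9, 22.0 and 20.6 CPM in KO replicates 2, 3, 4 and 5 (log2 fold change 1.20, standard error 0.23, edgeR adjusted p = 0.0316). Isca1, which acts with Glrx5 downstream of the scaffold, had 105, 226, 125 and 128 CPM in floxed and 286, 269.5, 377 and 352 CPM in KO libraries of the same numbers (log2 fold change 1.14, standard error 0.26, edgeR adjusted p = 0.0486). Neither pair of groups overlapped, and every KO library was above every floxed library for 7.1% of all genes. For Iscu, the scaffold itself, the log2 fold change was 0.62 (edgeR adjusted p = 0.0821), and for Nfs1, the enzyme that supplies the sulfur, 0.42 (edgeR adjusted p = 0.300).

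In heme handling, Flvcr1, an exporter of heme that is also known as a choline transporter, had 46.2, 29.4, 34.2 and 37.5 CPM in floxed replicates 1, 3, 4 and 5, against 17.8, 19.8, 17.3 and 18.7 CPM in KO replicates 2, 3, 4 and 5. It was lower in every KO library, with a log2 fold change of -1.0 (standard error 0.17, edgeR adjusted p = 0.0245). Slc48a1, which moves heme out of the phagolysosome, lay between 99.2 and 139 CPM in floxed and between 174 and 246 CPM in KO libraries, and just missed the threshold (log2 fold change 0.77, edgeR adjusted p = 0.0516). Cd163, the macrophage receptor for haemoglobin bound to haptoglobin, had a log2 fold change of 0.22 (edgeR adjusted p = 0.686).

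Among other uptake genes, Steap4, a ferrireductase of the same family as Steap3, had 23.4, 10.2, 17.6 and 18.2 CPM in floxed replicates 1, 3, 4 and 5, against 3.77, 6.74, 4.79 and 7.64 CPM in KO replicates 2, 3, 4 and 5. Its groups did not overlap, and the log2 fold change was -1.60 (standard error 0.30, edgeR adjusted p = 0.0313), opposite in sign to that of Steap3. Hscb, Isca1, Steap4 and Flvcr1 each lost the call with the replicate block, with edgeR adjusted p-values of 0.122, 0.166, 0.141 and 0.127. With 1 library left out, Hscb, Isca1 and Steap4 kept the call only without floxed replicate 3. Their edgeR adjusted p-values were otherwise 0.0681 to 0.0942, 0.0805 to 0.131 and 0.0601 to 0.117. Flvcr1 kept the call only without floxed replicate 3 or 4, and otherwise had edgeR adjusted p-values of 0.0617 to 0.0967. Lcn2, which binds bacterial siderophores and is stored in neutrophil granules, had 936 CPM in floxed replicate 3 and 3230 to 3856 CPM in the other floxed libraries, against 1576 to 1882 CPM in KO libraries (edgeR adjusted p = 0.290).

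None of the 6 control genes passed edgeR's test with all libraries and no block, where 3 had an unadjusted p-value under 0.05, against 21.8% of all genes. None passed in limma-voom, while 2 passed in DESeq2, against 11.2% of all genes in either direction. With the block for numbers 4 and 5, Fbxl5 (edgeR adjusted p = 0.0128) and Bach1 (edgeR adjusted p = 0.0176) were lower and passed, as were 9.65% of all genes, and on the transcripts that lack the 3′ end Fbxl5 did (edgeR adjusted p = 0.0422), as did 3.03% of all genes. Fbxl5 and Nfe2l2 were lower and passed without floxed replicate 3, as were 8.64% of all genes. The log2 fold change was -0.01 for Aco1 and -0.38 for Ireb2, the iron regulatory proteins that bind the hairpins shown above, with edgeR adjusted p-values of 0.977 and 0.388. Bach1, the heme-sensing repressor of Hmox1, lay between 89.2 and 131 CPM in floxed and between 64.8 and 81.7 CPM in KO libraries, without overlap (log2 fold change -0.51, standard error 0.16, edgeR adjusted p = 0.108). Fbxl5, the iron-sensing subunit that marks Ireb2 protein for breakdown, lay between 133 and 240 CPM in floxed and between 83.7 and 115 CPM in KO libraries, also without overlap (log2 fold change -0.86, standard error 0.21, edgeR adjusted p = 0.0560). Nfe2l2, the activator of Hmox1, the ferritins and Blvrb under oxidative stress, had a log2 fold change of -0.35 (edgeR adjusted p = 0.220).

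The antioxidant response element bound by the Nfe2l2 protein, searched as TGACNNNGC on both strands of the RefSeq promoters of GRCm38 from 250 bases before to 50 after a start, had no match in the promoters of the 6 members found there, Tfrc, Steap3, Glrx5, Fth1, Ftl1 and Blvrb, and was present in 12.4% of 32851 promoters. Elements farther from the start are not covered by this window.

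**Figure D5:**
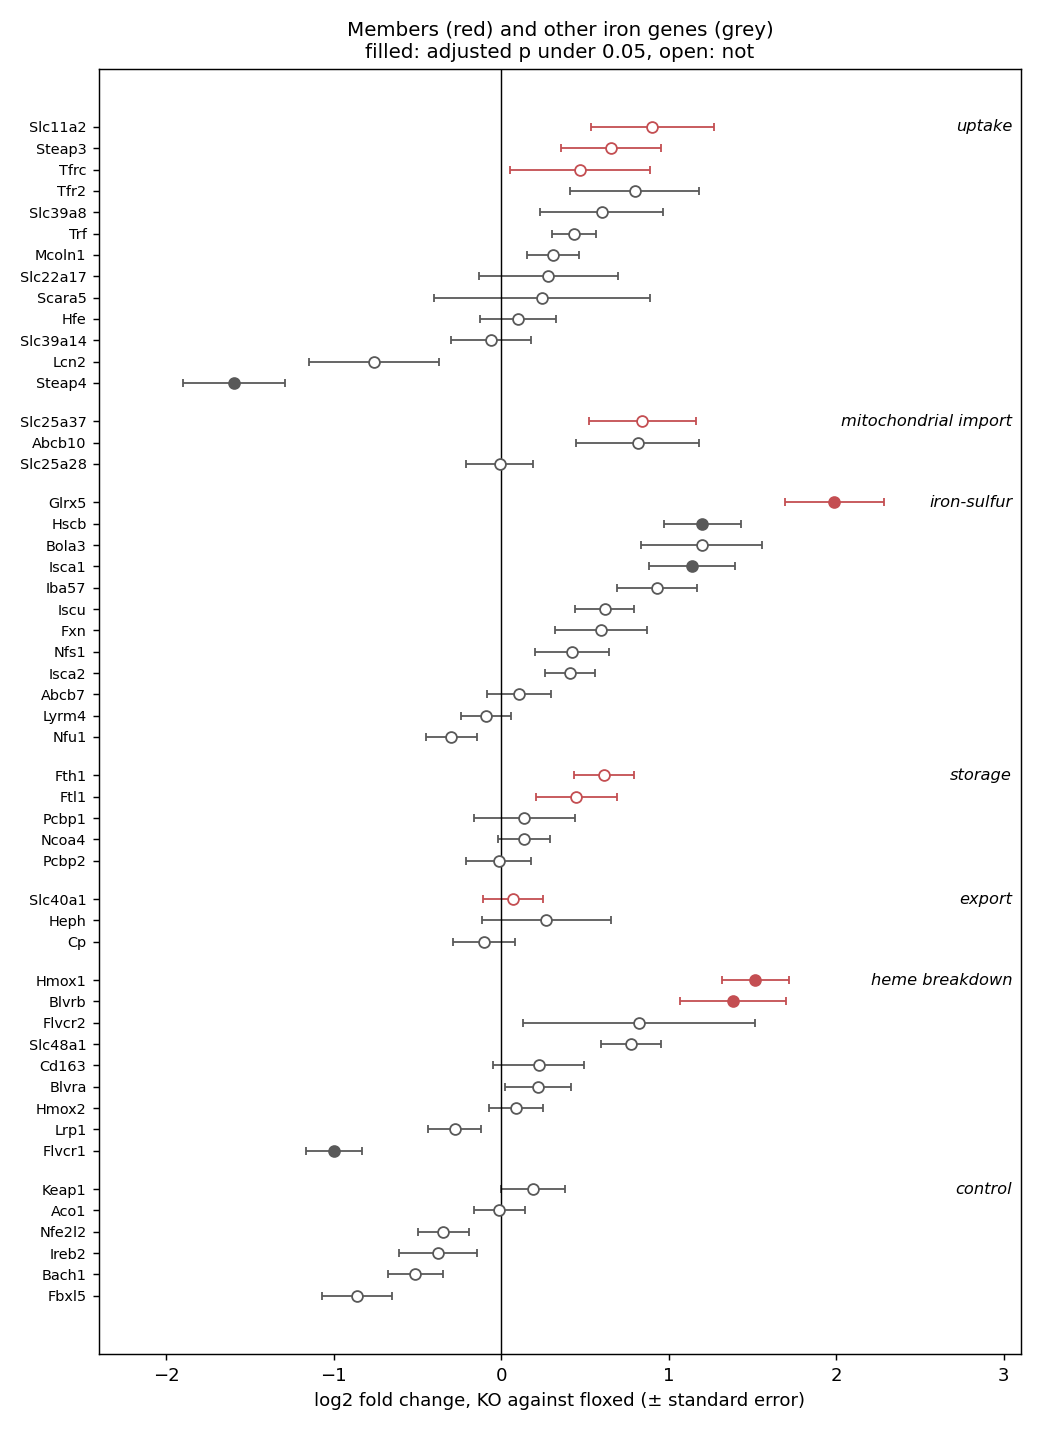
Log2 fold change of KO against floxed libraries (horizontal axis, ± standard error) of the 10 members (red) and 41 other iron genes tested (grey), grouped by role, filled where the adjusted p-value was under 0.05. Filled points are Glrx5, Hscb, Isca1, Hmox1 and Blvrb on the right and Steap4 and Flvcr1 on the left, and all members lie at or right of 0.

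Levels could be set side by side between genes only per length, here as CPM per kilobase of the longest spliced coding transcript, with the reserve that counts were taken to include introns. This transcript is not the counted one for Fth1, Steap3 and Slc11a2. In floxed libraries the order of the mean levels was Ftl1 at 476, Fth1 at 369, Slc25a37 at 192, Blvrb at 91.5, Tfrc at 67.2, Slc40a1 at 51.2, Glrx5 at 40.7, Hmox1 at 37.7, Slc11a2 at 6.67 and Steap3 at 6.10 CPM per kilobase. The ranges of neighbours in this order overlapped, except for Hmox1 and Slc11a2. In KO libraries the order was Ftl1 at 649.8, Fth1 at 564, Slc25a37 at 344, Blvrb at 239, Glrx5 at 162, Hmox1 at 108, Tfrc at 93.0, Slc40a1 at 53.6, Slc11a2 at 12.5 and Steap3 at 9.61 CPM per kilobase. There the ranges of neighbours did not overlap between Fth1 and Slc25a37, Slc25a37 and Blvrb, Tfrc and Slc40a1, or Slc40a1 and Slc11a2. By the length of the counted transcript, Fth1 was at 593 CPM per kilobase in floxed and 907 in KO libraries, above Ftl1, and Steap3 at 24.4 and 38.5, above Slc11a2 at 9.74 and 18.2, so the order of these neighbours depends on the transcript taken. Without floxed replicate 3, the floxed mean of Tfrc was 42.9, below Slc40a1 at 48.0, and that of Slc11a2 4.51, below Steap3 at 4.94 CPM per kilobase. Glrx5 and Hmox1 stood below Tfrc and Slc40a1 in the mean of floxed libraries and above both in that of KO libraries.

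Among 9091 tested genes with a mean of at least 10 CPM, those most like 3 members across the 8 libraries were sought by Pearson correlation of log2(CPM + 1), as a description of points that share library and depth. For Tfrc they included Usp7 (r = 0.994), a deubiquitinase, and Map4k5 (0.994), a protein kinase. Usp7 reached 289 CPM in floxed replicate 3 against 128 to 172 CPM in the other floxed libraries. For Fth1 they were Sars (0.992), a seryl-tRNA synthetase, Ppib (0.990), a prolyl isomerase of the endoplasmic reticulum, and Eif2b4 (0.990), a subunit of a translation factor. For Hmox1 they were Carhsp1, Tmem265 and Kctd14 (0.996 each), and Carhsp1, a cytosolic RNA-binding protein, lay between 128 and 182 CPM in floxed and between 243 and 292 CPM in KO libraries.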

How the data were processed

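RNA-seq of sorted LT-HSCs from 4 asrij floxed and 4 asrij KO mice was used, with 1 library for each mouse. Reads had been examined in FastQC, cleaned with Trim Galore and mapped by Bowtie 2 to transcripts of GRCm38/mm10, and the authors deposited whole-number counts for 138930 transcripts in each library, without normalization. The counting tool, the use of strand and the versions are not given in the sources used here. Since 7 of the 8 deposited count files use tabs despite a csv name, their unit was recorded as other, and all 8 were tested to hold whole-number counts.

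Of the transcripts, 138789 were matched to GENCODE M21. Their counts were taken to cover introns and both strands, with reads counted on several transcripts, so each gene was given its transcript with the highest total. Libraries held 56661356 to 120858975 transcript counts, so counting error is small for the members, which had at least 464 counts in each library.

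Counts were filtered with filterByExpr, normalized by TMM and tested with glmQLFTest of edgeR (version 4.0.16, on R 4.3.3), and p-values were adjusted by Benjamini-Hochberg over all genes. Limma-voom (limma 3.58.1) and DESeq2 1.42.0 were alternatives, and all fits were tested on simulated data. Ratios were compared as log2((CPM + 1)/(CPM + 1)) with exact two-sided permutation tests in Python 3.11.15 (scipy 1.17.1, pandas 2.3.3, numpy 2.4.6). Other alternatives were RLE size factors, no filter, sums over transcripts, no haemoglobin genes, blocks, and each library left out. Counts on transcripts that lack the 3′ end were added after the data had been seen.

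The members and lists were chosen with earlier results of these data known. The genes named are all members, other iron genes that passed the test, 6 fixed partners (Hmox2, Blvra, Slc25a28, Aco1, Ireb2 and Bach1), and the 3 genes most correlated with each of Tfrc, Fth1 and Hmox1. Some results are not reported here. The others named in the text, such as Fbxl5, Slc48a1 and Lcn2, were chosen after their values were seen. Of the listed symbols, Ahsp, Hbb-b1 and Hbb-b2 were not matched in the annotation. No 2 libraries of the same genotype agree within sampling noise.

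Replicate numbers come from the labels, and numbers 3, 4 and 5 occur in both genotypes, in different mice. Deviations from the genotype means correlated at 0.374, 0.394 and 0.579 for the same-numbered pairs. The fit with the number as a block is given where it changes a call. Correlations of other pairs lay between -0.589 and 0.603, positive within numbers 1 to 3 and within 4 and 5 and negative between these sets.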

Additional observations from a re-analysis of the deposited data

Results flagged for a closer look

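In floxed replicate 3, 2 members lay farther from the other floxed libraries than Dixon's test at the 95% level allows for 4 samples. Slc25a37 had a log2(CPM + 1) of 10.49 there against 9.14 to 9.32 in the other floxed libraries, a gap of 0.866 of the range of the group. Slc11a2 had 5.88 against 4.28 to 4.50, a gap of 0.867 of the range. The test was made on 28 groups of 4 libraries, of the members, Ociad1 and the 3 ratios, and chance flags about 1 in 20 groups.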

How the results depend on the processing

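Calls over all genes need a log2 fold change above 1.5 as well, and passing needs the adjusted p-value alone. With all libraries edgeR called 261 genes, 651 passed, and 3 members and 4 other iron genes passed. By DESeq2, 503 genes were called and 2447 passed, with 5 members (Fth1 and Slc25a37 beside the 3) and 11 other iron genes. With the replicate block, 44 genes were called and 48 passed, with 0 members and 0 other iron genes. With a block for numbers 4 and 5, 521 genes were called and 4059 passed, with 13 other iron genes, and with counts that lack the 3′ end, 138 and 476, with 2. Of the other iron genes, 1 passed and exceeded the fold limit. With each library left out in turn, 51 to 857 genes were called, 1 to 8 members and 0 to 18 other iron genes passed, the highest values each without floxed replicate 3. Ociad1 then had log2 fold changes of -1.75 to -1.29 and passed in 4 of 8 fits, and it passed with the block. The cause of these differences was not tested.

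The sign of Slc40a1 turned with sums over transcripts (-0.15), without floxed replicate 4 (-0.0064) or 5 (-0.0051), in a range up to 0.17 with 1 library left out, and without the 3′ end (-0.62), and that of Tfrc without the 3′ end (-0.75). The difference in the Tfrc to Fth1 ratio turned within numbers 1 to 3 (-0.44) and ranged from -0.21 to 0.52 with 1 library left out. For the Fth1 to Ftl1 ratio it was -0.22 within numbers 1 to 3, 0.51 within 4 and 5, and 0.03 to 0.30 with 1 library left out. The Slc25a37 to Slc25a28 ratio kept its direction, at 0.74 to 1.43 with 1 library left out and 0.89 with the replicate block, where the other ratios had 0.22 (Fth1 to Ftl1) and 0.12 (Tfrc to Fth1). RLE size factors, no filter, limma-voom and no haemoglobin genes changed no member's call.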

Other observations

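Iron genes outside the members also had calls that depended on floxed replicate 3. Abcb10, the mitochondrial transporter that binds and steadies mitoferrin 1, had 119, 362, 124 and 120 CPM in floxed replicates 1, 3, 4 and 5, against 295, 295, 346 and 339 CPM in KO replicates 2, 3, 4 and 5. Floxed replicate 3 was the highest of all libraries, as it was for Tfrc. The log2 fold change of Abcb10 was 0.81 (edgeR adjusted p = 0.234) with all libraries and 1.41 (edgeR adjusted p = 0.000332) without this library. Tfr2, the second transferrin receptor, had 8.15, 26.6, 8.63 and 8.70 CPM in the floxed and 21.1, 18.4, 24.4 and 27.0 CPM in the KO libraries. Its log2 fold change was 0.80 (edgeR adjusted p = 0.263) and, without floxed replicate 3, 1.43 (edgeR adjusted p = 0.00113).

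Genes that were lower in KO and passed the test without this library were Steap4, Lcn2, Flvcr1, Fbxl5 and Nfe2l2, as were 8.64% of all genes. Lcn2 had a log2 fold change of -1.04 there (edgeR adjusted p = 0.00211), against -0.76 (edgeR adjusted p = 0.290) with all libraries. These genes were chosen after their values were seen.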
